A study of Mus musculus with 24 samples.

Results

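Distal accessible regions that stem cells and myeloid progenitors hold in common, and that the KLS cells lacking both Daxx and Pu.1 had lost from their peak list, were described here. An interval of the Daxx-WT KLS list was a member when it lay over 1000 bp from every annotated transcription start site, overlapped by at least 1 bp a peak in Daxx-KO KLS cells, Daxx-WT LT-HSCs, Daxx-WT CMPs and Daxx-WT GMPs, and overlapped no peak of the DKO KLS list. Of the 33325 distinct intervals of the Daxx-WT KLS list, 18231 were distal, 12687 of these had a peak in the other 4 lists, and 7603 were members. The remaining 5084 shared distal peaks, which the DKO list also held, are called kept peaks below and serve as the closest comparison. Members were thus chosen by their absence from DKO cells, so all values that compare DKO or Daxx-KO with Daxx-WT KLS cells describe the selection and carry no test.

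The series holds 24 ATAC-seq libraries of 11 groups of cells sorted from C57BL/6 mouse bone marrow. ATAC-seq reads open chromatin through the cuts of a transposase. KLS cells (c-Kit+ Lin- Sca-1+, a mixture of stem cells and multipotent progenitors) were taken at 3 w.p.i. (weeks after Cre induction) from Daxx +/+ mice (Daxx-WT, 2 libraries), Daxx F/F mice (Daxx-KO, 3 libraries) and Daxx F/F Pu.1 F/F mice (DKO, 2 libraries). LT-HSCs (long-term haematopoietic stem cells) at 3 d.p.i. (days after induction) had 2 Daxx-WT and 3 Daxx-KO libraries, and further LT-HSCs, CMPs (common myeloid progenitors) and GMPs (granulocyte-monocyte progenitors), whose labels state no time, were sequenced as 2 libraries of each genotype. Every group, controls included, carried Cre +/-. The labels give neither the Cre driver nor the age of the animals. The study's methods used the tamoxifen-inducible Rosa26CreERT2, active in all tissues, for the LT-HSC, CMP and GMP work, and Mx1Cre, induced by pI:pC, an agent that itself triggers interferon, for the double deletion. For the other KLS ATAC-seq groups the driver is not given in the sources used here. No group lacked Pu.1 with Daxx intact, so what Pu.1 loss alone does to these regions was not measured. The labels call both 3 d.p.i. control libraries Daxx +/+, whereas the study's text describes 1 of its controls at that time as Daxx +/F, so the control genotype of the LT-HSC values is uncertain. The study describes its genomic data as coming from biological replicates.

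Daxx deposits the histone variant H3.3 into chromatin, and F/F alleles are cut by Cre. Pu.1, encoded by Spi1, is an ETS-family transcription factor that is needed for myeloid and lymphoid development and that binds purine-rich DNA with the core GAGGAA, often at enhancers far from promoters. Distal accessible regions of haematopoietic cells are mostly candidate enhancers, where transcription factors keep nucleosomes away.

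Both targeted genes showed the deletion in the DKO libraries. At a site over the last exon of Spi1 (chr2:91114801-91115800), DKO cells had 2.12 and 4.68 scaled reads and Daxx-WT cells 31.1 and 58.1. At a site within Daxx (chr17:33913451-33914850) DKO cells had 6.36 and 8.43 and Daxx-WT cells 79.9 and 44.97. The 4 other listed Spi1 sites were higher in DKO cells, by 1.19 to 1.38 on the log2 scale. This was near the median of 1.29 over all 50928 listed sites, of which 36740 were higher, so it was not particular to Spi1. The size of these differences depends on the scaling. A scaled read is a library's read number in the site divided by that library's constant, as the authors set it. Among the 6 genes that encode sort markers, 3 had a start-site peak in Daxx-WT KLS cells (Kit, Cd34 and Flt3), 4 in Daxx-KO and 2 in DKO, where the Cd34 peak was not listed. Of the 8 lineage genes removed by the sort, none had such a peak in Daxx-WT or DKO cells, and 1 had it in Daxx-KO cells. Ly6a, which encodes Sca-1, had none in any KLS list. A missing DKO peak was not particular to Cd34. Of the 15094 Daxx-WT KLS peaks that were not distal, 24.7% overlapped no DKO peak. In bulk samples, fewer cells of a type and less accessibility per cell cannot be told apart.

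Strong members with the Pu.1 motif GAGGAAGT, or its reverse complement ACTTCCTC, are printed here. The motif holds the core GAGGAA that Pu.1, the factor that the DKO cells lack, can bind. A match of letters does not show binding, and Pu.1 binding was not examined here. The printed members are the 8 with the highest fold enrichment among the strongest members, the gene-list examples and the members with the largest changes at listed sites. Each line gives the reference strand 5′ to 3′ (RefSeq GRCm38.p6, the same build as mm10), 40 bases to each side of the motif nearest to the middle of the peak, with the motif in capitals.
Cxcl5 member, chr5:90742177-90742264: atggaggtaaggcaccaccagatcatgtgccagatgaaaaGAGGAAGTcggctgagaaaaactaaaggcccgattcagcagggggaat
Sox5 member, chr6:144818130-144818217: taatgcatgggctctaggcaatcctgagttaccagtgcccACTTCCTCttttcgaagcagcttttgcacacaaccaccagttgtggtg
Adamtsl1 member, chr4:85953766-85953853: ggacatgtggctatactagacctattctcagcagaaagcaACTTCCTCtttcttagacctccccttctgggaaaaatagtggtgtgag
Meis1 member, chr11:18970124-18970211: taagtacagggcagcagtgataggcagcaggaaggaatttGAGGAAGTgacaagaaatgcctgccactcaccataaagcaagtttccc
Ltf member, chr9:111046331-111046418: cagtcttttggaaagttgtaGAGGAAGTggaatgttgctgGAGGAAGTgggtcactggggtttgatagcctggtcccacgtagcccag
Meis1 member, chr11:18925050-18925137: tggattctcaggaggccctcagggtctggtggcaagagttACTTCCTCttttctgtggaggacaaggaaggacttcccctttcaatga
Zfpm1 member, chr8:122331389-122331476: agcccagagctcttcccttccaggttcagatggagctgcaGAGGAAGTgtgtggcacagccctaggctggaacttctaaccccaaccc
Irf4 member, chr13:30786250-30786337: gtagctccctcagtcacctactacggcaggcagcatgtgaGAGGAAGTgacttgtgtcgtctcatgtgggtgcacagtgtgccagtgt

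These 8 windows lay within peaks whose fold enrichment over background, as the authors' peak caller gave it, ran from 6.85 near Irf4 to 13.8 near Cxcl5. Several of the genes have textbook roles in blood cells. Meis1 maintains stem cells, Ltf encodes lactoferrin of neutrophil granules, Zfpm1 encodes the GATA cofactor Fog1, and Irf4 directs lymphoid and dendritic fates. The Ltf line shows 2 motifs, and the Zfpm1 member held 1 more outside the printed stretch. A nearest gene is a position label alone and does not show which gene a region controls.

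The Pu.1 motif lay within 100 bp of the middle of 728 of 7603 members, a share of 9.58% (95% Wilson interval 8.93 to 10.3). Of the kept peaks, 270 of 5084 held it, or 5.31% (interval 4.73 to 5.96), and the share over all 18231 distal peaks was 7.09%. Among all 33325 peaks it was 5.06%. The intervals cover counting error only, and regions are not replicates. The sequence was not part of the rule, but the rule selected on absence from the peak list of cells that lack both Daxx and Pu.1. Read the other way, 728 of the 998 shared distal peaks with a motif were members (72.9%), against 6875 of 11689 without 1 (58.8%). Members with 2 or more motifs in the window numbered 32, compared with 5 kept peaks.

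The difference in share was also present between peaks of like strength. When the shared distal peaks were divided into 4 equal groups by fold enrichment, the motif was found in 9.05%, 8.63%, 10.1% and 11.3% of members from the weakest to the strongest group. The kept peaks of the same groups had 4.90%, 3.84%, 5.94% and 5.88%. Members were higher in each of the 4 groups. Since regions are not replicates, this was not tested, and the groups were not matched for width or GC content.

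**Figure D1:**
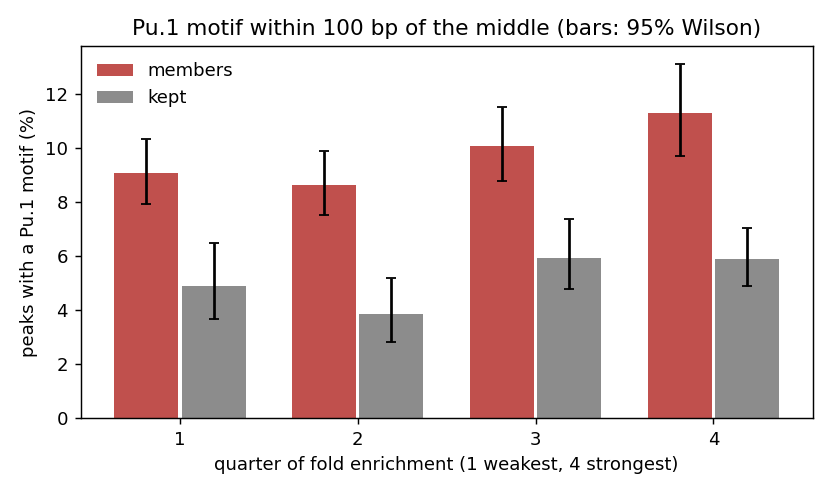
Bars give the percentage of members (red) and kept peaks (grey) with GAGGAAGT or its reverse complement within 100 bp of the middle, in 4 equal groups by fold enrichment in Daxx-WT KLS cells, with 95% Wilson intervals. Members ran from 8.63% to 11.3% and kept peaks from 3.84% to 5.94%.

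Motifs clustered at the points of highest accessibility. In bins of 20 bp around the summit, members held 2.70 and 2.85 motifs per 100 peaks in the 2 central bins, compared with 1.36 in each of these bins for kept peaks. Beyond 100 bp from the summit, single bins of members held 0.105 to 0.303 per 100 peaks and those of kept peaks 0.0787 to 0.275. The sets thus lay furthest apart within 40 bp of the summit.

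**Figure D2:**
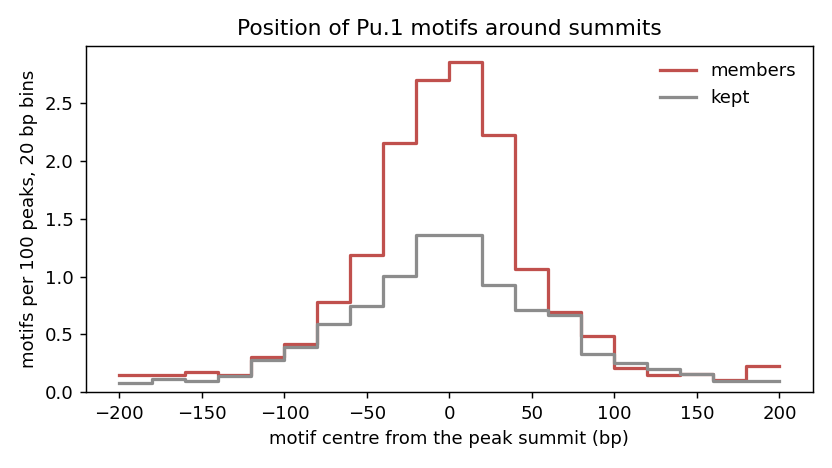
Lines give the number of Pu.1 motifs per 100 peaks in bins of 20 bp by distance of the motif centre from the summit of the highest fold enrichment, for members (red) and kept peaks (grey). Both lines peak at the summit, at 2.85 and 1.36 per 100 peaks.

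The other motifs searched differed by fewer percentage points between the sets. The RUNX word TGTGGTT was found in 9.88% of members and 11.3% of kept peaks, the AP-1 words TGAGTCA and TGACTCA in 6.48% and 7.14%, and the E-box CAGCTG in 14.7% and 16.0%. The CTCF word AGGTGGC had equal shares, 7.09% and 7.14%, and the IRF word GAAANNGAA 8.23% and 7.44%. GATA sites (AGATAA) were slightly more frequent in members, 9.59% against 7.61%. The ETS word CCGGAAGT, which Pu.1 favours less, went the other way, with 0.329% of members and 0.964% of kept peaks, a larger ratio between rarer shares than that of GAGGAAGT. The palindromic C/EBP word TTGCGCAA was too rare for a comparison, in 6 members and 8 kept peaks. Both strands were searched for every word.

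A scan of all 32876 words of 8 letters, strands merged, was added after the motif shares had been seen. Ranked by the percentage of members minus the percentage of kept peaks in the same window, the first 4 words were AAGAGGAA (10.3% against 4.01%), AGAGGAAG (10.8% against 6.47%), GAGGAAGT (9.58% against 5.31%) and AAAGAGGA (7.01% against 2.81%), which overlap each other and share the letters GAGGA. Next came AAGGGGAA, with 5.25% against 2.05%. The words most frequent in kept peaks relative to members were CCCCGCCC (2.26% against 4.76%) and GCCCCGCC (1.22% against 3.52%), followed by CAGGAAGC (4.70% against 6.51%) and ACAGGAAG (5.70% against 7.45%), which hold the ETS core GGAA after CA. Median GC content was 49.8% in members and 52.2% in kept peaks, and a median of 9.45% of member bases and 2.49% of kept bases were repeat-masked.

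Members were weaker and narrower peaks than kept peaks. Their median fold enrichment was 5.21 (quartiles 4.44 to 6.22, highest 13.8), against 5.99 (4.88 to 7.33) for kept peaks and 5.20 for all distal peaks. Median width was 682 bp for members and 826 bp for kept peaks. In 10 equal groups of the shared distal peaks by fold enrichment, the members' share was 69.7% in the weakest, 72.4% in the next and 33.0% in the strongest, where fold enrichment was 7.97 or more. Of the 5752 shared distal peaks in the stronger part of the list (above its median fold enrichment), 49.5% were members. The DKO list was also the shortest of all 11, with 22156 intervals, and its part in the absence of weak peaks was not tested.

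**Figure D3:**
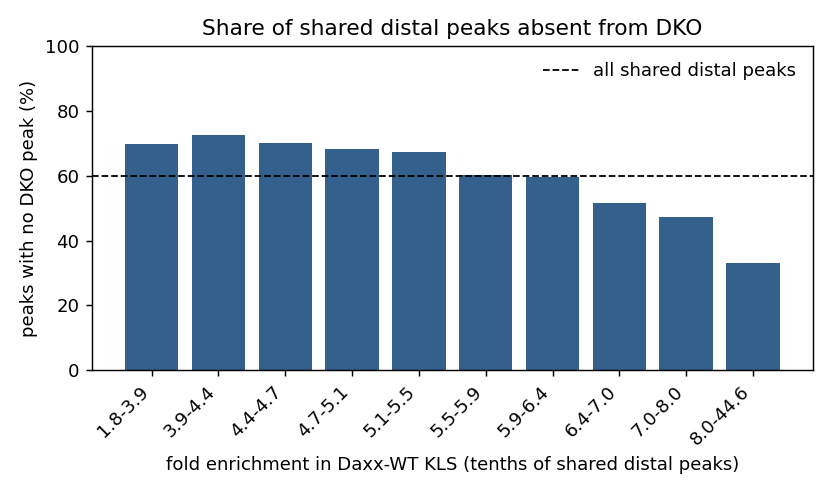
Bars give the percentage of shared distal peaks with no DKO peak in 10 equal groups by fold enrichment in Daxx-WT KLS cells, and the dashed line gives the value for all of them, 59.9%. The share stays between 59.7% and 72.4% over the 7 weakest groups and falls to 33.0% in the strongest.

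By position, 46.5% of members had their middle in an intron of a protein-coding gene, 4.52% in an exon and 49.0% between genes, against 40.7%, 5.63% and 53.6% of kept peaks. The nearest protein-coding start was a median of 16428 bp away for members and 14031.5 bp for kept peaks. At the limit of the rule, the 2 members closest to any start site lay 1001 bp (near Map4, fold enrichment 7.53) and 1003 bp (near 4933405E24Rik, 4.13) away, and the 2 peaks just excluded lay at 1000 bp (near Zfp618, 5.90) and 997 bp (near Rin2, 8.23). The nearest DKO peak was a median of 20818 bp away, with 219 members (2.88%) closer than or at 1000 bp. The 2 closest gaps were 27 bp near Btg2 (fold enrichment 3.08) and 31 bp near Lcp1 (4.28). In kept peaks the 2 smallest overlaps with a DKO peak were 115 bp near Tbc1d8 (2.03) and 196 bp near Fbxw7 (4.13).

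The rule did not use 5 of the lists. Members had a peak in the Daxx-KO LT-HSC list in 99.4% of cases, in Daxx-KO CMPs in 92.2% and in Daxx-KO GMPs in 85.3%, against 99.7%, 97.6% and 94.96% of kept peaks. In the 3 d.p.i. LT-HSC lists, 77.1% of members had a Daxx-WT peak and 87.6% a Daxx-KO peak, against 91.7% and 95.9% of kept peaks. All 5 lists held a peak for 4733 members (62.3%), and for 2 members none of them did. Most members thus had a peak in each Daxx-KO list. The lists differ in length, with 36949 (Daxx-WT) and 44326 (Daxx-KO) intervals at 3 d.p.i., and its part in these shares was not tested.

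Reads per library were given only at the sites that the authors' window test listed. Of the 7603 members, 3681 (48.4%) overlapped a site with lower mean log2 scaled reads in DKO than in Daxx-WT cells, and 80 (1.05%) a site with higher. Over all 18231 distal peaks these shares were 36.4% and 3.64%, and of the kept peaks 16.5% and 7.28%. Because members were selected on the DKO list, these counts show how the 2 readouts of the same libraries relate and not a new effect. A further 3851 members (50.7%) lay at no listed site, for which the reads in DKO cells are not known. These had a lower median fold enrichment (4.87) than the members at lower sites (5.73), and fewer held a Pu.1 motif (6.15% against 13.2%). The share of unlisted members lay between those of kept peaks (5.31%) and all distal peaks (7.09%). Of the 728 members with a motif, 486 lay at lower sites. The CTCF word was found in 9.997% of unlisted members and in 3.97% of members at lower sites.

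The 3755 distinct listed sites at members had a median difference of -1.07 in log2(scaled reads + 1), DKO minus Daxx-WT, with quartiles of -1.28 and -0.91. Median scaled reads at the 3674 lower sites were 44.5 and 49.7 in DKO and 105.6 and 100.9 in Daxx-WT cells. At the 81 higher sites, the medians were 62.6 and 62.8 in DKO and 27.5 and 31.8 in Daxx-WT. In each of the 3755 sites the 2 DKO values lay on 1 side of both Daxx-WT values. So they did at 99.96% of all 50928 listed sites, as the listing by the authors' test favours, so this separation is not particular to members. At kept peaks, 855 of 1235 sites were lower, and the median was -0.75. Reads remained at most lower sites in DKO cells, so that absence from the peak list did not mean absence of reads. The scaling matters for the size: the authors' constants left mean scaled reads per window at 10.6 and 15.0 in DKO and 7.39 and 8.19 in Daxx-WT cells, the median over all 50928 listed sites was 1.29, and with libraries scaled to their mean reads the member median was -1.75.

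**Figure D4:**
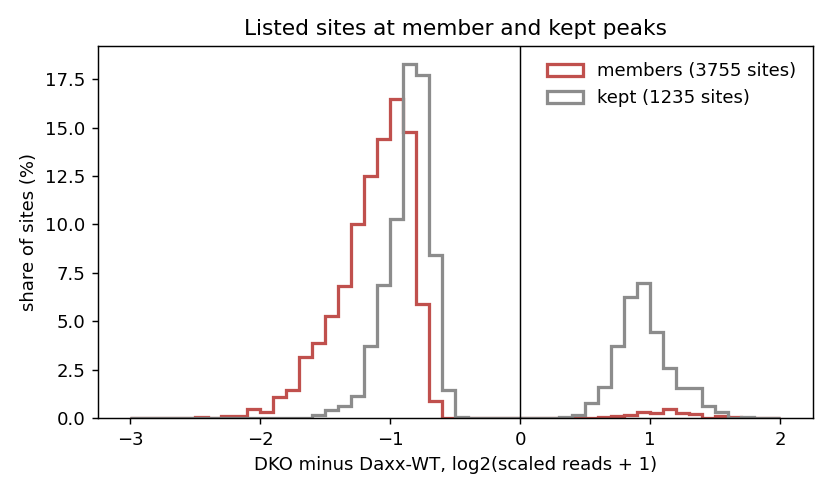
Lines give the percentage of listed sites by the difference in log2(scaled reads + 1), DKO minus Daxx-WT, for the 3755 sites at members (red) and the 1235 at kept peaks (grey). Nearly all member sites lie below 0, while 380 of the kept sites lie above it.

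The 12 strongest members all lay at lower sites. The strongest of all (fold enrichment 13.8) lay between genes at chr5:90741885-90742596, 16764 bp from the start of Cxcl5, which encodes a chemokine that attracts neutrophils. Its site held 84.8 and 66.5 scaled reads in DKO against 242.3 and 181.0 in Daxx-WT cells, a difference of -1.47. An intronic member of Esr1 (12.5), the oestrogen receptor gene, had 62.6 and 45.9 against 184.6 and 165.6. Within an intron of Traf5 (11.5), a signalling adaptor of the tumour necrosis factor receptor family, the values were 62.6 and 65.6 against 216.5 and 198.5. Near Sox5 (11.6), a transcription factor gene, they were 67.9 and 74.95 against 189.0 and 182.1. The other 8 lay nearest to Myt1l, Akr1d1, Ttc29, Cpb1, Efna5, Ppp1r21, Dpp6 and Six3, with differences from -1.09 to -2.13. The DKO values were below the Daxx-WT values at all 12, as they were at 3674 of the 3755 member sites.

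The 8 largest falls ranged from -2.25 to -2.81, and 3 of them moved by over 1.5 times without the first DKO library. At the Nsd3 member, within the gene of a histone methyltransferase, DKO cells had 1.06 and 37.5 scaled reads and Daxx-WT cells 60.4 and 62.5. Its difference of -2.81 became -0.70 without that library. At the Zfp831 member the DKO values were 2.12 and 23.4 against 43.5 and 39.5, and the difference of -2.28 became -0.80 without it. For the Svil member, -2.44 became -1.62. The DKO libraries were closer to each other at the Pard3 member, a cell polarity gene, with 46.7 and 40.3 against 214.8 and 215.0 (-2.28), at Dock5 with 25.5 and 37.5 against 182.8 and 136.0 (-2.31), and at Adamtsl1 with 30.8 and 42.2 against 204.1 and 150.3 (-2.25). Akap13 and Cdh12 complete the group with -2.48 and -2.45.

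Rises were rare and lay at the members' edges. Of the 80 members at a higher site, 3 had their summit inside it, against 3595 of the 3681 at a lower site (97.7%). The 5 largest were at Dnajb8 (1.66), Cars (1.62), Dop1b (1.57), Prdm2 (1.56) and Zfp438 (1.53), and with libraries scaled to their mean reads these differences were 0.98, 0.93, 0.89, 0.87 and 0.87. The Dnajb8 site, with 181.3 and 149.0 scaled reads in DKO and 48.8 and 53.7 in Daxx-WT cells, was 1600 bp long and shared 17 bp with the member, so its reads are mostly those of the neighbouring sequence. The other overlaps were 219 bp (Cars), 101 bp (Dop1b), 111 bp (Prdm2) and 38 bp (Zfp438). The fold enrichment of these 5 members was 3.85 to 5.24, and 4 of the 5 were below the members' median of 5.21.

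**Figure D5:**
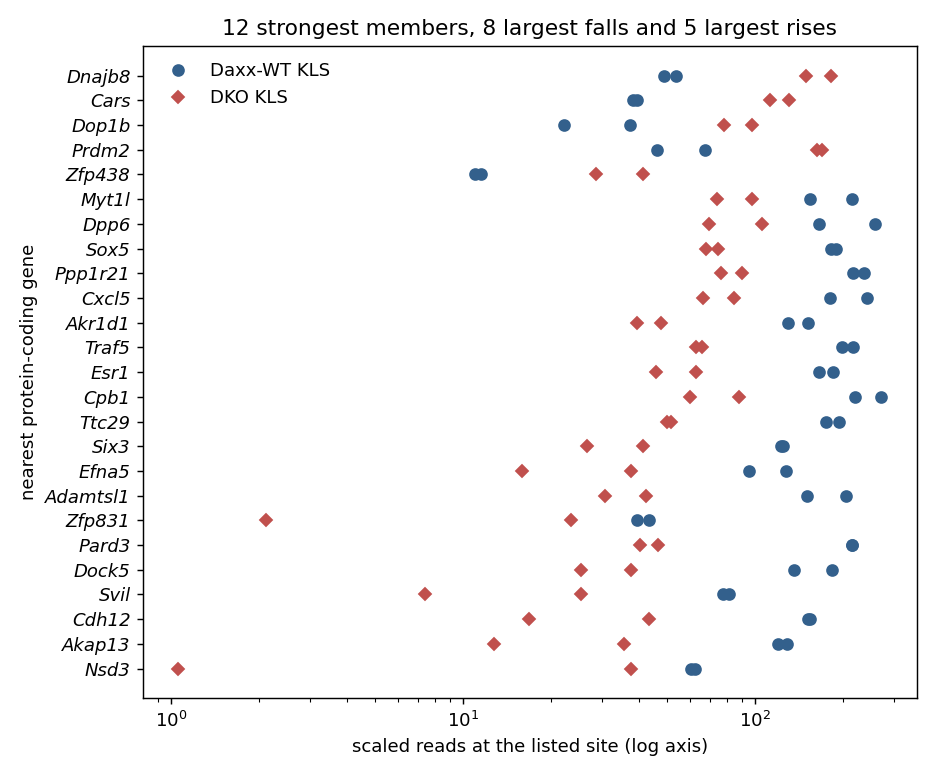
Points give scaled reads on a log axis in the 2 Daxx-WT (blue circles) and 2 DKO (red diamonds) KLS libraries at the sites of the 12 strongest members, the 8 largest falls and the 5 largest rises, ordered by difference. DKO lies left of Daxx-WT in 20 rows and right of it in 5, and 1 DKO library stands far from the other at Nsd3 and Zfp831.

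Members were spread over many genes. They were nearest to 4911 protein-coding genes, of which 1601 had 2 or more members and 109 had 5 or more, and 1683 of the genes also had a kept peak. Adgrl2, an adhesion receptor gene, had 16 members and 1 kept peak. Zmiz1, a transcriptional coactivator gene, had 14 members and 4 kept peaks. Next came Pde4d, Nav2, Cog6 and Prex1 with 9 each, and Nrp1, Rybp, Bach2 and Rreb1 with 8 each. At Rybp, which encodes a Polycomb subunit, all 8 members lay at lower sites, with differences from -0.82 to -1.59.

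Among stem cell regulators, 18 of 34 genes were nearest to at least 1 member, with 44 members and 24 kept peaks in all, and 26 of the members (59.1%) lay at lower sites, against 48.4% of all members. Meis1 had 6 members, all at lower sites, and 1 kept peak. Its 2 strongest members, both intronic and both with a printed Pu.1 motif, had 97.6 and 75.9 scaled reads in DKO against 306.2 and 274.2 in Daxx-WT (-1.74) and 78.5 and 61.8 against 275.1 and 263.2 (-1.93). The other 4 Meis1 members differed by -0.88 to -1.41. All 3 members of Erg, an ETS factor of stem cells, lay at lower sites, and the intronic member at chr16:95438998-95440182 had 175.0 and 187.4 against 394.0 and 383.9 (-1.10). Etv6 had 5 members with 2 at lower sites, and Runx1, the master regulator of definitive haematopoiesis, 4 with 2. At the Runx1 member chr16:93028424-93029112 the values were 43.5 and 50.6 against 145.5 and 179.9.

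Among granulocyte and monocyte transcription factors, 19 of 30 genes had members, 44 in all against 43 kept peaks, and 29 (65.9%) lay at lower sites, against 48.4% of all members. Maf, which acts in macrophages, had 7 members, all at lower sites, with differences from -0.92 to -1.29. They lay 80002 to 399304 bp from the Maf start. Tcf7l2 had 6 members with 3 at lower sites, and Id2 had 5 with 1. Lower sites thus covered every Maf member and few of those near Id2.

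Among myeloid cytokine receptors, 21 of 29 genes had members, 41 in all against 27 kept peaks. Of the members, 31 (75.6%) lay at lower sites, with none at a higher site alone. The share at lower sites among all members was 48.4%. Tgfbr2, a receptor of transforming growth factor beta, had 5 members, all at lower sites, and 6 kept peaks. Its strongest member (9.35) had 56.2 and 59.0 scaled reads in DKO against 186.4 and 149.2 in Daxx-WT (-1.52). Cxcr4, which retains stem cells in the marrow, had 4 members with 2 at lower sites. The interferon receptor gene Ifnar1 and Il10ra had 3 each with 2 at lower sites.

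Granule and effector genes had 13 members at 9 of 30 genes, beside 4 kept peaks. Members were 76.5% of their shared distal peaks, against 59.9% for all genes. Of these members, 4 (30.8%) lay at lower sites, against 48.4% of all members. The Ltf member (8.25) and both Prtn3 members lay at no listed site. An Itgam member (6.75), near the gene of the integrin CD11b, had 65.8 and 83.4 against 188.1 and 201.8 (-1.38). Ncf4, a subunit gene of the neutrophil oxidase, had 3 members, of which 1 touched both kinds of site, 1 no site and 1 a higher site alone, with which it shared 14 of 2750 bp.

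Lymphoid genes held 51 members at 16 of 35 genes, beside 27 kept peaks. Of the members, 28 (54.9%) lay at lower sites, against 48.4% of all members. Bach2, a B-cell transcription factor gene, had 8 members with 7 at lower sites and differences from -0.81 to -1.69. Foxo1 had 6 members with a fold enrichment of up to 10.6, of which 1 lay at a lower site. Ikzf2 had 5 with 1, and Mef2c 5 with 4. In the erythroid and megakaryocyte list, 16 members at 10 of 31 annotated genes included 6 at Zfpm1, beside 6 kept peaks in all. Lower sites held 10 of the members (62.5%), against the same 48.4%.

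Immune signalling genes had 47 members at 22 of 44 genes, beside 37 kept peaks. Lower sites held 28 of the members (59.6%), against 48.4% of all members. Itga4, the integrin of lymphoid and progenitor adhesion, had 6 members with 3 at lower sites, and Plcg2 5 with 3. Interferon-stimulated genes and nucleic acid sensors had 13 members at 8 of 33 annotated genes, beside 11 kept peaks. Of these members, 5 (38.5%) lay at lower sites, below the 48.4% of all members. Irf2 had 4 members with 2 at lower sites, while both Adar members and both Ifih1 members lay at no listed site. Of the loci that the study discusses for other reasons, 8 of 21 genes had 13 members, beside 14 kept peaks. Of these members, 7 (53.8%) lay at lower sites, near the share of all members. Irf4 had 3 members with 1 at a lower site, where the DKO values were 47.7 and 87.1 against 136.7 and 125.0 (-1.01). Flt3 had 2 members at lower sites (-1.51 and -1.06), and the 2 members nearest to Mki67 lay 197536 and 349070 bp from its start. The members' share of the shared distal peaks ran from 48.1% to 76.5% over these 9 lists, against 59.9% overall.

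The rule required a peak in Daxx-KO KLS cells, so few losses there were built in. Of the members, 182 (2.39%) overlapped a site of the Daxx-KO table with lower values and 243 (3.20%) a site with higher values. Over all distal peaks the shares were 3.61% and 3.42%. The members' shares lay near or below this background, and 42 of the 182 and 180 of the 243 had their summit inside the site. The DKO and Daxx-KO tables share the 2 Daxx-WT libraries. Of the 182 members at lower Daxx-KO sites, 118 lay at lower DKO sites, as did 116 of the 243 at higher Daxx-KO sites. At the 244 higher sites the medians were 103.6, 135.6 and 114.3 scaled reads in Daxx-KO cells against 66.6 and 69.4 for Daxx-WT. At the 182 lower sites it was 23.9, 21.9 and 23.5 against 46.5 and 45.9.

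LT-HSCs at 3 d.p.i. offered libraries that the rule had not used. Of the members, 179 (2.35%) overlapped a site with lower and 239 (3.14%) a site with higher values in Daxx-KO, against 2.51% and 3.31% of all distal peaks, and 86 and 181 of them had their summit inside the site. On the 422 listed sites at members, limma called 0 at an adjusted p below 0.05 with Benjamini-Hochberg adjustment over the 413247 windows that the authors tested, with 0% called among the listed sites as well, the only ones with values. The smallest adjusted p at a member was 0.301. Adjusted over the listed sites alone, limma called 379 member sites, beside 95.8% of all listed sites. At an unadjusted p below 0.05, 380 of the 422 sites passed, but the authors had listed these sites by a test of the same libraries. A count of 0 under this adjustment says nothing about whether the sites differed.

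Examples of LT-HSC values follow, whose size depends on the scaling. At the Maf member chr8:115413982-115414659 Daxx-KO cells had 49.6, 44.9 and 46.5 scaled reads and Daxx-WT cells 98.0 and 73.2 (-0.84 ± 0.23, SE). At the Bach2 member chr4:32280425-32280832 the values were 54.1, 126.0 and 101.3 against 181.4 and 169.7 (-0.98 ± 0.36), at a site that covers only the start of the member. The Rybp member chr6:100109905-100110580 was on the other side, with 184.5, 156.5 and 196.4 in Daxx-KO against 116.1 and 106.0 (0.68 ± 0.23). With libraries scaled to their mean reads the differences were -0.50, -0.64 and 1.02. The adjusted p of limma was 0.385, 0.965 and 0.698 for these 3 sites. In all, 16 of the members chosen by the naming rule had a listed LT-HSC site, 6 of them higher in Daxx-KO.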

How the data were processed

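ATAC-seq libraries were grouped by their titles. Per the labels the submitters' processing notes name CASAVA 1.8.4, cutadapt 1.13, STAR 2.5.3, bedtools and mm10, with no role or order given. Of the 11 deposited peak lists, 1 per group, the 5 of KLS cells and of LT-HSCs at 3 d.p.i. give the authors' fold enrichment (a ratio) per summit, and an interval with several summits was counted once with its highest value. A list covers a whole group and carries no spread. The authors also deposited 3 tables of sites from diffReps 1.55.6 (windows of 600 bp moved by 50 bp, p cutoff 0.0001), with scaled reads per library. Multiplied by the library's constant, 100% of values under 20 reads were within 0.15 of a whole number. Mean reads per window were 4.21 to 16, and total read numbers are not given in the sources used here. The authors' fold changes and p-values in these tables, and the peaks' scores and −log10 p-values and q-values, were not used.

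Intervals on assembled chromosomes that shared 1 bp or more counted as overlapping, and start sites were taken from GENCODE M21. Differences are of mean log2(scaled reads + 1). The LT-HSC table was tested with limma 3.58.1 (R 4.3.3), which was tested on simulated data first. Motifs were searched in 201 bases around the interval's middle in GRCm38.p6. No interval ran past a chromosome end of that assembly. Other work used Python 3.11.15, pandas 2.3.3, numpy 2.4.6, scipy 1.17.1 and matplotlib 3.10.9. The members, gene lists and tests were chosen with earlier results of these data known. Named were the 12 strongest members, per gene list the 4 genes with the most members, the 10 genes with the most members, and the 8 largest falls and 5 largest rises at DKO sites. Some named items are not reported here. Replicate libraries were compared by chi-square per site. The 2 Daxx-WT KLS libraries gave 0.949 at the sites of the Daxx-KO table but 1.85 at those of the DKO table, above sampling noise, and were counted as 2. At the listed LT-HSC sites the values were 1.74 to 3.16 between Daxx-KO libraries and 1.39 between the Daxx-WT libraries, also above sampling noise. The p-values and SEs of limma rest on the spread at the listed sites alone, which the authors' test of the same libraries had selected. They may therefore understate the spread between libraries, which the study describes as biological replicates.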

Additional observations from a re-analysis of the deposited data

Results flagged for a closer look

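Of the members, 43 overlapped a listed site in both comparisons of Daxx-KO with Daxx-WT, in KLS cells and in 3 d.p.i. LT-HSCs, which share no library. They moved in the same direction at 27 members, 20 higher and 7 lower in both. At the other 16 every Daxx-KO library lay above every Daxx-WT library in 1 population and below in the other. The libraries of the 2 genotypes were likewise apart at 99.6% of all listed KLS sites and 99.5% of all listed LT-HSC sites. That separation is thus not particular to these members. The same counts over all distal peaks were not made. These opposite directions were not tested as a difference, and the populations differ in time after induction as well as in cell type.

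Values at the sites of 15 of these members follow as log2 differences, Daxx-KO minus Daxx-WT, first in KLS cells and then in LT-HSCs. Each member is named by its nearest protein-coding gene, and the sizes depend on the scaling. Higher in KLS cells and lower in LT-HSCs were Upb1 (0.64 and -0.79), N4bp3 (0.63 and -0.66), Pitpna (0.79 and -0.70), Id2 (0.87 and -1.14), Kcnrg (0.84 and -1.06), Shisal1 (0.67 and -0.64), Tnc (0.74 and -0.77) and Ccser1 (0.94 and -1.24). Lower in KLS cells and higher in LT-HSCs were Psma6 (-0.65 and 0.66), Zfp36l1 (-0.70 and 0.52), Rin3 (-1.02 and 0.87), Tiam1 (-1.11 and 0.63), Pkd1 (-0.90 and 0.95), Itga4 (-1.17 and 0.58) and Kat8 (-0.94 and 0.85). Id2 encodes an inhibitor of helix-loop-helix factors and Itga4 an integrin subunit, and their members at these sites had a fold enrichment of 3.90 and 7.04 in Daxx-WT KLS cells. With libraries scaled to their mean reads, the Id2 values were 1.35 and -0.81 and the Itga4 values -0.70 and 0.92. The number of lower sites at all members stayed at 182 in each comparison under that scaling. At 4 members, those of Upb1, Id2, Kcnrg and Itga4, the KLS and LT-HSC sites did not overlap each other, so the opposite values come from different intervals of the same peak or its flanks.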

How the results depend on the processing

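The number of members stayed between 6988 and 7989 when the distance was set to 2000 or 500 bp, when overlaps had to cover at least 50% of the interval (7562) or when no DKO peak could lie within 200 bp (7551), and was 2846 in the stronger part of the Daxx-WT KLS list. The share of members at lower DKO sites stayed within its counting interval under 4 alternatives and was 47.284% when the site had to hold the summit, an alternative chosen after seeing the data. Scaling libraries to their mean reads per window moved the median difference at member sites to -1.75 in the DKO table (from -1.07) and to 1.12 in the Daxx-KO table (from 0.63). Left out 1 at a time, libraries gave -1.13 to -0.99 in DKO and 0.49 to 0.71 in Daxx-KO. With the replicate number as a block the DKO median was -1.07, the same value, since 2 full pairs give the same mean, and the pairs showed no shared deviation (correlations within 0.00308 of 0). In the Daxx-KO table same-numbered libraries correlated at 0.0517 or less. No paired analysis was possible for the LT-HSC table because its library names carry no replicate numbers. There, adjustment over the listed sites alone called 379 of the 422 member sites, 208 higher and 171 lower, beside 95.8% of all listed sites. The other 8 alternatives called 0, and the smallest adjusted p over all of them ranged from 0.082 to 1. The share of members with a Pu.1 motif was 5.16% within 50 bp, 13.0% within 150 bp, 18.4% in the whole interval, 13.7% around the summit and 35.7% for GAGGAA, against 2.64%, 7.199%, 13.7%, 7.81% and 28.0% of kept peaks, and 8.63% and 11.3% in groups 2 and 4 of the 4 by strength. Taking the lowest fold enrichment of an interval with several summits gave a median of 4.36. The 25 sites of the strongest members, falls and rises kept their direction in all 125 values, but 21 of the 25 moved in size under scaling to mean reads. Depth was not matched between peak lists, and sites not listed have no values.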
